A study of Drosophila melanogaster with 8 samples.

Results

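The cytochrome P450 genes of Drosophila melanogaster outside the Cyp6a group were compared between flies mutant for the nuclear receptor DHR39 (gene symbol Hr39) and control flies. Genes were taken by name, as those whose symbol is Cyp followed by a digit, leaving out names that begin with Cyp6a as well as Cyp4g1 and Cyp18a1. Of 14865 genes in the deposited count table, 84 names match the pattern and 68 meet the rule. One of the 68, Cyp1, is described in the deposited annotation as cyclophilin 1, a protein folding enzyme and not a P450, which leaves 67 P450 genes including the pseudogene Cyp6t2Psi. The study sequenced poly(A) RNA of whole flies to ask how the receptor bears on male fertility and accessory gland expression. DHR39 mutants, given in the deposited sample sheet as genotype DHR393.48, have 3 libraries, and controls, given there as w1118, have 5 libraries that were re-used from another series. Flies of both groups were taken at day 8 of adulthood on food with 8% yeast and 9% sugar. Neither sex nor the number of flies per library is stated in the labels, nothing there says that replicates came from separate cultures, and p-values therefore measure the spread between these libraries, which may be technical.

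Cytochrome P450s are haem enzymes that insert oxygen into small molecules, using electrons passed from Cpr, the P450 reductase, in the endoplasmic reticulum or from ferredoxins in mitochondria. Insect P450s fall into the CYP2, CYP3, CYP4 and mitochondrial clans. The CYP2 and mitochondrial clans hold most enzymes of ecdysone synthesis, and the CYP3 and CYP4 clans hold many enzymes of plant toxin and insecticide breakdown, which are made mainly in midgut, Malpighian tubule and fat body. The name rule takes in no P450 gene with another kind of symbol. It reached only families CYP303, CYP304 and CYP305 of the CYP2 clan and CYP12, CYP49 and CYP301 of the mitochondrial clan. Counts for these clans do not cover P450 genes outside those families. For most of the fly genes no substrate is known.

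The libraries hold 16072497 to 19935574 counts each. Levels are given as CPM, the read counts of a gene scaled to its library size, with library sizes adjusted by the trimmed mean of M-values (TMM). A log2 fold change or log2 difference stands for the DHR39 level over the control level and has its SE, and means have the SD over 3 DHR39 and 5 control libraries. A gene was called at a Benjamini-Hochberg adjusted p under 0.05 in the quasi-likelihood test of edgeR over 13506 genes. Hr39 itself remained at 27.0 ± 2.89 CPM in DHR39 flies, against 36.2 ± 2.38 CPM in controls, a log2 difference of -0.42 ± 0.10 (edgeR adjusted p = 0.0119) that was lost without DHR39 replicate 1 (0.0515) or 2 (0.0508) and on library totals alone (0.0593). In whole flies, fewer cells of a type and less RNA per cell cannot be told apart. Marker genes of P450-rich and other tissues were summed per library, and over all genes tested 6.58% were called higher and 10.7% lower. Summed midgut markers were at 2295 to 3140 CPM in DHR39 libraries, against 3282 to 3987 CPM in controls (3 of 6 lower, none higher). Of these, alphaTry averaged 1037 CPM in DHR39 flies and 1808 CPM in controls. Amy-p (1087 and 993 CPM) and Npc1b (36.6 and 26.3 CPM) went the other way without passing. Fat body markers were at 4684 to 6078 CPM in DHR39 libraries, against 6645 to 9637 CPM in controls (2 of 5 lower, none higher). Much of that sum is apolpp, at 3159 CPM in DHR39 flies and 5161 CPM in controls. Malpighian tubule markers summed to 443 to 474 CPM in DHR39 libraries and 413 to 488 CPM in controls, with Uro higher and 4 of 7 lower. Oenocyte markers, a sum made mostly of Cyp4g1, stood at 16766 to 19582 CPM in DHR39 libraries and 30950 to 38889 CPM in controls (2 of 5 lower, 1 higher), and accessory gland markers at 723 to 1021 CPM and 3889 to 7236 CPM (6 of 6 lower). Testis markers overlapped between the groups, at 2516 to 2992 CPM in DHR39 libraries and 2407 to 3257 CPM in controls (none of 6 called), and the 3 yolk protein genes summed to at most 14.3 CPM in DHR39 libraries and 16.8 CPM in controls (none of 3 called). No marker in the table was at 0 in every library, and the part of these tissues in the P450 differences was not tested.

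Of the 64 P450 genes with enough counts to test, 25 were called (39.1%), 9 of them higher and 16 lower in DHR39 flies, while over all genes tested 17.3% were called, 6.58% higher and 10.7% lower. The differences were mostly below 2-fold: 4 genes were at least 2-fold higher (1.84% of all genes) and 5 at least 2-fold lower (5.03% of all genes). The median log2 fold change of the 64 genes was -0.11, and that of all genes tested was -0.0044. The 39 genes that did not pass ran from -0.61 to 0.60, and Cyp303a1, Cyp313a2 and Cyp313a3 had too few counts to test. Cyp1, the cyclophilin, did not pass either, at 478 ± 30.7 CPM in DHR39 flies and 575 ± 72.6 CPM in controls (edgeR adjusted p = 0.125). CPM of the groups did not overlap for 10 genes that were higher (9.74% of all genes) and 17 that were lower (13.4% of all genes). Scaled by library totals alone, which moved the median of all genes to 0.14, 15 genes were higher (14.8% of all genes) and 12 lower (7.70% of all genes). With the 50 most abundant genes left out of the totals, 11 were higher (11.0% of all genes) and 12 lower (8.38% of all genes). Each direction below is therefore relative to the TMM scale.

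**Figure D1:**
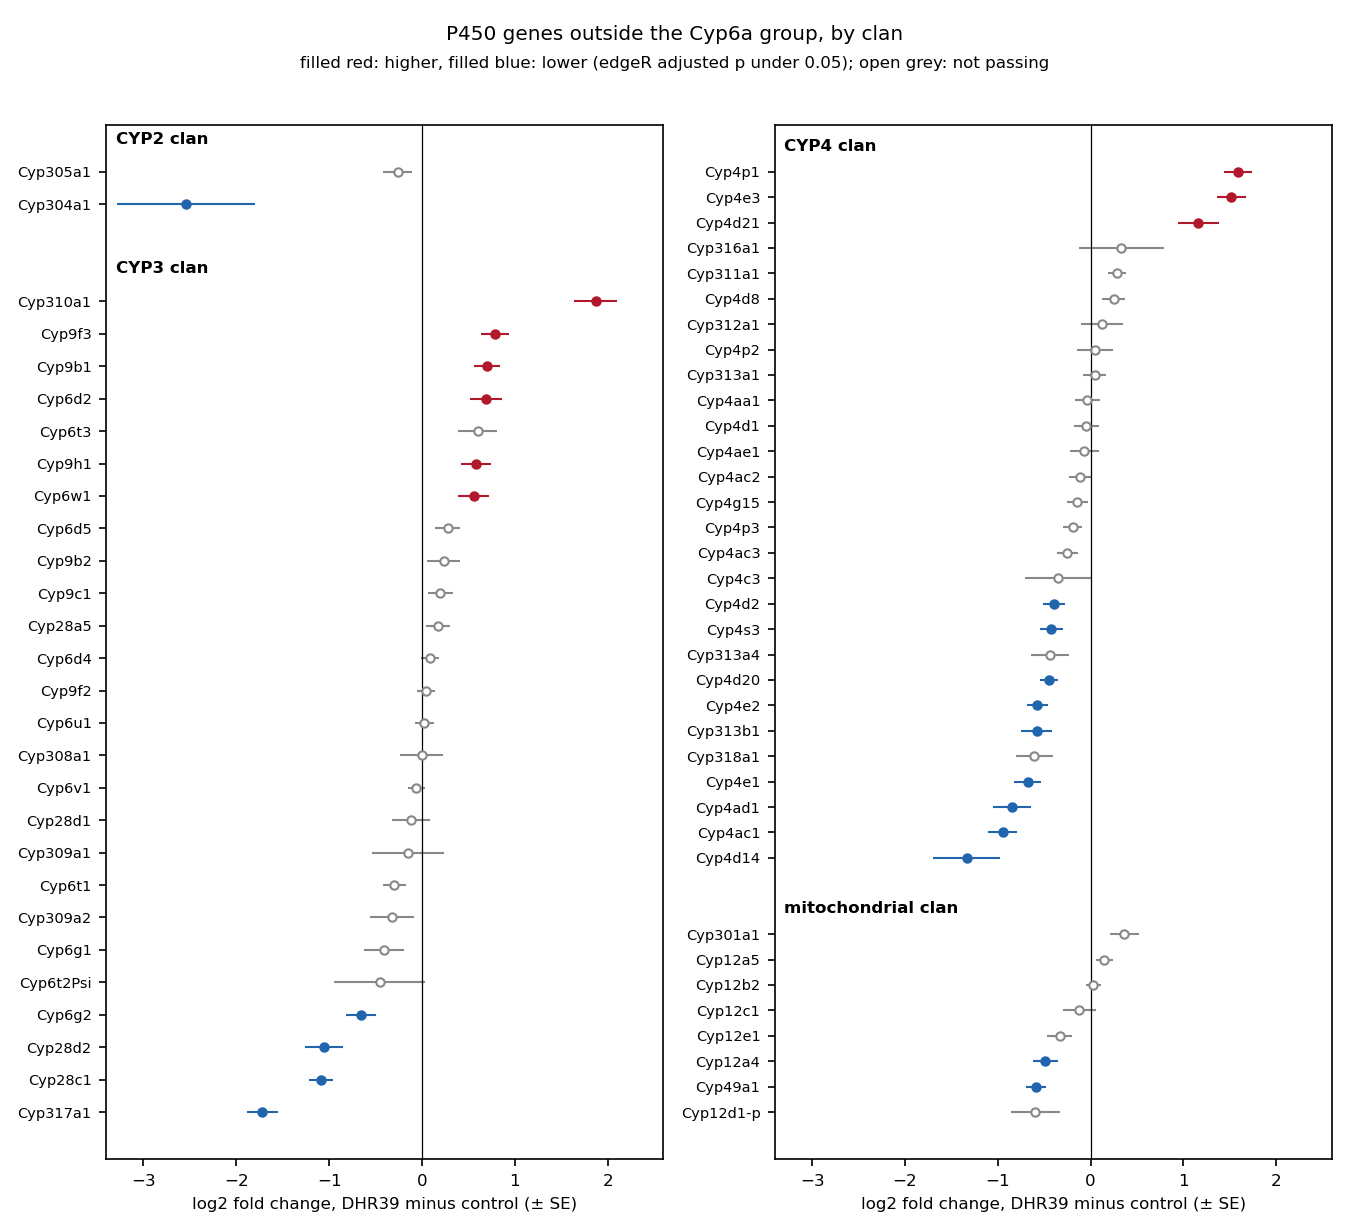
Log2 fold change of CPM, DHR39 minus control, for each of the 64 tested P450 genes (horizontal axis, with ± 1 SE), grouped by clan and sorted from highest to lowest. The 9 genes called higher include Cyp310a1 at 1.87, and the 16 called lower include Cyp304a1 at -2.54, which has the widest error.

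Summed over the 67 genes, P450 transcripts came to 4327, 4060 and 4051 CPM in the DHR39 libraries and to 4766, 4307, 3480, 3605 and 4274 CPM in the controls. All 3 DHR39 sums lie within the range of the controls. Per kilobase of exons, 7 genes averaged over 100 CPM per kb across the 8 libraries and made up 53.1% of the summed level. In order, these were Cyp313a1 at 310.6, Cyp6g1 at 212, Cyp6d5 at 190, Cyp9b2 at 134, Cyp9f2 at 118, Cyp12a4 at 108 and Cyp28d1 at 103 CPM per kb. Among these 7, Cyp12a4 was the only one called.

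The 3 highest of them did not pass the test. Cyp313a1 (3R, 14521049 to 14523064 on the BDGP6 assembly), for which no substrate is known, had 530, 521 and 490 CPM in DHR39 libraries and 504, 392, 485, 500 and 612 CPM in controls. The groups overlapped, with a log2 difference of 0.04 ± 0.12 (edgeR adjusted p = 0.870). Cyp6g1 (2R, 12185667 to 12188431), known for resistance to DDT and neonicotinoids, had 345, 347 and 401 CPM in DHR39 libraries, against 727, 473, 340, 345 and 531 CPM in controls. Its controls spread over more than the DHR39 libraries did, and its log2 fold change was -0.41 ± 0.22 (edgeR adjusted p = 0.254). Cyp6d5 (3R, 14029228 to 14031483) had 390, 332 and 326 CPM in DHR39 libraries and 345, 267, 253, 238 and 336 CPM in controls. These overlapped too, with a log2 difference of 0.28 ± 0.13 (edgeR adjusted p = 0.198), although on library totals alone the gene was called higher (0.43, adjusted p = 0.0317).

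The CYP4 clan held 12 calls among 28 tested genes, 3 higher and 9 lower (6.58% and 10.7% of all genes). On library totals alone 5 were higher and 6 lower (14.8% and 7.70% of all genes). All 3 called higher on the TMM scale belong to family CYP4, whose vertebrate relatives hydroxylate fatty acids, and each was at least 2-fold higher. Cyp4p1 (2R, 9240041 to 9242139), with the highest fold change of the 3, had 103, 62.7 and 78.5 CPM in DHR39 libraries, against 31.9, 26.7, 28.7, 25.8 and 22.4 CPM in controls. Every DHR39 library was well above every control, and the log2 fold change was 1.59 ± 0.15 (edgeR adjusted p = 2.1e-05). Cyp4e3 (2L, 9747839 to 9750071), which contributes to permethrin tolerance in the Malpighian tubule, had 129, 98.0 and 140 CPM in DHR39 libraries and 48.1, 46.0, 38.5, 31.0 and 49.9 CPM in controls. Here too the lowest mutant library was above the highest control, with a log2 difference of 1.52 ± 0.16 (edgeR adjusted p = 3.5e-05). Uro, the tubule marker that was higher, stood at 196 CPM in DHR39 flies and 89.3 CPM in controls, beside 4 tubule markers that were lower.

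Cyp4d21 (2L, 7605600 to 7607701), also called Sxe1, is transcribed more in males than in females and affects male courtship and mating. It had 149, 278 and 209 CPM in DHR39 libraries and 82.9, 66.6, 80.4, 120 and 125 CPM in controls. The mutant libraries differed among themselves by more than the controls did, but all were above them. The log2 fold change was 1.16 ± 0.22 (edgeR adjusted p = 0.00325). With the replicate block it was 0.95 and without each library in turn it stayed called.

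The other 9 calls of the CYP4 clan were lower, and of these Cyp4d14 alone passed 2-fold. Cyp4d14 (X, 2173415 to 2175315) had 9.21, 16.8 and 8.39 CPM in DHR39 libraries, against 18.3, 18.6, 51.4, 22.7 and 34.5 CPM in controls. The groups did not overlap, but control replicate 3 was far above control replicates 1 and 2, which were close to DHR39 replicate 2. The log2 fold change was -1.33 ± 0.36 (edgeR adjusted p = 0.0237), and the call ended without DHR39 replicate 1 (adjusted p = 0.0928) or DHR39 replicate 3 (0.107). Its exons overlap those of ND-B14.5A on the opposite strand.

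**Figure D2:**
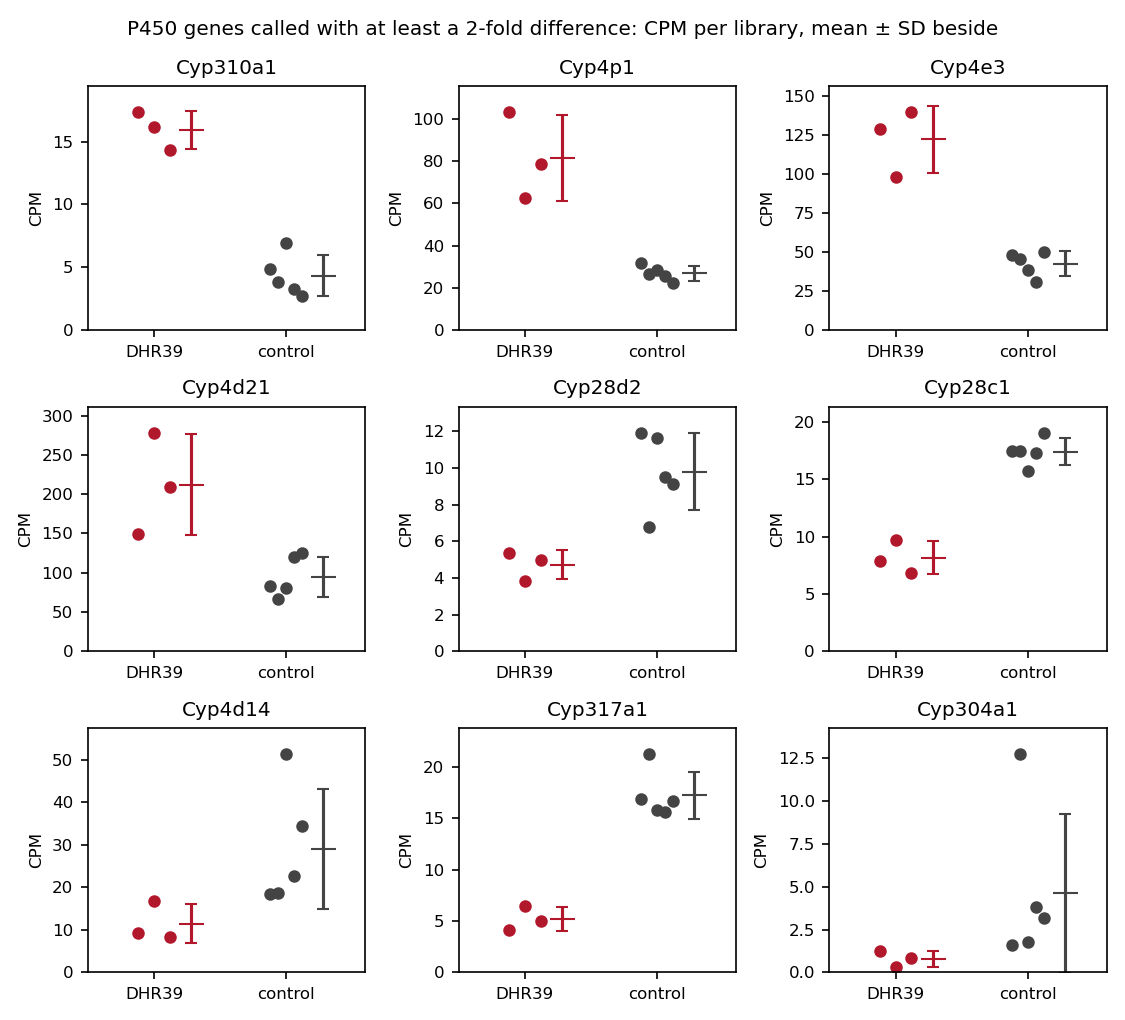
CPM in each library (vertical axes, linear from 0) of the 9 P450 genes called with at least a 2-fold difference, DHR39 in red and control in grey, with mean ± SD beside the points. The groups do not overlap in any of the 9 panels, and single control libraries stand high for Cyp4d14 (51.4 CPM) and Cyp304a1 (12.7 CPM).

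Smaller decreases were called for 7 more CYP4 genes, of 21 tested in the family. Cyp4ac1 was at 46.4 ± 9.99 CPM in DHR39 flies and 89.5 ± 14.1 CPM in controls, a log2 difference of -0.95 ± 0.15 (edgeR adjusted p = 0.00112). Cyp4e1 fell by 0.68 on the log2 scale (adjusted p = 0.00593), Cyp4e2 by 0.57 (0.00439) and Cyp4d20 by 0.45 (0.00646), and these 3 kept their calls under all 15 alternatives. None of the alternatives bears on exon overlap, and exons of Cyp4e1 overlap those of Mal-A1 on the opposite strand. Cyp4ad1 fell by 0.84 (adjusted p = 0.0141), although DHR39 replicate 1 at 8.69 CPM reached the lowest control at 8.68 CPM, and the call ended without DHR39 replicate 3 (0.0651). The calls of Cyp4d2 (-0.39, adjusted p = 0.0411) and Cyp4s3 (-0.42, 0.0343) were weak. Cyp4d2 lost its call with the replicate block (0.110), on library totals alone (0.148) and without each DHR39 library or control replicate 1, 2 or 5 (0.0578 to 0.137). Cyp4s3 lost its call with the block (0.0664), on library totals alone (0.112) and without DHR39 replicate 1 or 3 or control replicate 1, 2 or 5 (0.0570 to 0.129). On the opposite strand, exons of Cyp4d2 overlap those of asRNA:CR44690 and exons of Cyp4s3 those of Rab3-GEF.

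Members of one CYP4 subfamily moved in opposite directions. In the Cyp4e subfamily Cyp4e3 was higher while Cyp4e1 and Cyp4e2 were lower. In the Cyp4d subfamily Cyp4d21 was higher, Cyp4d14, Cyp4d2 and Cyp4d20 were lower, and Cyp4d1 and Cyp4d8 did not pass. Of the 10 CYP4 genes that did not pass, the most abundant by CPM was Cyp4g15, the close relative of Cyp4g1, at 55.2 ± 0.792 CPM in DHR39 flies and 61.0 ± 7.89 CPM in controls, a log2 difference of -0.14 ± 0.11 (edgeR adjusted p = 0.463). Cyp4g1 itself, the oenocyte enzyme that makes cuticular hydrocarbons, was at 14824 ± 1216 CPM in DHR39 flies and 30748 ± 3052 CPM in controls.

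Outside family CYP4, the clan had 1 call, in family CYP313. Cyp313b1 was at 5.17 ± 1.16 CPM in DHR39 flies and 7.72 ± 0.617 CPM in controls, a log2 difference of -0.58 ± 0.17 (edgeR adjusted p = 0.0331). That call ended on library totals alone (0.0902) and without DHR39 replicate 2 or 3 or control replicate 1, 3, 4 or 5 (0.0536 to 0.137). Cyp313a2 and Cyp313a3 had too few counts to test, and Cyp313a2 had no counts in any DHR39 library, where 3 counts correspond to 0.150 to 0.187 CPM, and 6 and 2 counts in control replicates 3 and 5. Cyp311a1, needed for lipid composition of the midgut, did not pass (log2 difference 0.28 ± 0.10, adjusted p = 0.0739), but was called higher with the replicate block (0.39, 0.0192), on library totals alone (0.43, 0.00758) and without control replicate 2 (0.33, 0.0362). Cyp312a1 was at 252 ± 40.4 CPM in DHR39 flies and 232 ± 77.3 CPM in controls and passed only with the block (0.48, adjusted p = 0.0278) or with control replicates 3 to 5 alone (0.49, 0.0373). Cyp318a1 fell short of the threshold (log2 difference -0.61 ± 0.20, adjusted p = 0.0555), and was called lower without control replicate 2 (-0.68, 0.0358) and by DESeq2 (0.0422).

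In the CYP3 clan, 10 of 26 genes were called, 6 higher and 4 lower (6.58% and 10.7% of all genes). The 2 largest differences were in families with a single member. Cyp310a1 (2L, 18651058 to 18653010) had 17.3, 16.2 and 14.3 CPM in DHR39 libraries, against 4.90, 3.84, 6.95, 3.33 and 2.73 CPM in controls. Every mutant library was more than 2-fold above the highest control, with 244 to 341 counts in each. Its log2 fold change of 1.87 ± 0.23 was the highest of the 64 genes (edgeR adjusted p = 0.000153). Cyp317a1 (2R, 14898312 to 14903095) had 4.15, 6.45 and 5.04 CPM in DHR39 libraries, against 16.9, 21.2, 15.8, 15.6 and 16.7 CPM in controls. The mutant libraries were all far below the controls, among which replicate 2 stood high. Cyp317a1 fell by 1.72 ± 0.16 on the log2 scale (edgeR adjusted p = 2.1e-05), and its exons overlap those of Kank on the opposite strand.

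Family CYP9 had 3 calls among 6 genes, all higher, against 6.58% of all genes called higher. Cyp9f3 was at 20.3 ± 1.03 CPM in DHR39 flies and 11.7 ± 2.30 CPM in controls, a log2 difference of 0.79 ± 0.15 (edgeR adjusted p = 0.00318). Cyp9b1 was at 27.3 ± 4.36 CPM in DHR39 flies and 16.7 ± 2.56 CPM in controls (log2 difference 0.70 ± 0.14, adjusted p = 0.00447), and Cyp9h1 at 26.3 ± 2.96 and 17.6 ± 3.65 CPM (log2 difference 0.58 ± 0.16, 0.0261). Exons of Cyp9b1 overlap those of esn and of an INE-1 element on the opposite strand. The call of Cyp9h1 ended without DHR39 replicate 1 (0.104), DHR39 replicate 2 (0.0720) or control replicate 4 (0.0604). The family's log2 fold changes ran from 0.05 to 0.79 with a median of 0.41. Its most abundant uncalled member was Cyp9b2, at 246 ± 20.1 CPM in DHR39 flies and 209 ± 54.5 CPM in controls (log2 difference 0.23 ± 0.18, adjusted p = 0.457). With the replicate block Cyp9b2 was called higher (0.53, 0.00432).

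Of the 11 CYP6 genes outside the Cyp6a group, 2 were called higher and 1 lower (6.58% and 10.7% of all genes). On library totals alone 4 were higher and 1 lower (14.8% and 7.70% of all genes). Cyp6d2, which protects against camptothecin, was at 40.6 ± 2.07 CPM in DHR39 flies and 25.2 ± 6.15 CPM in controls (log2 difference 0.69 ± 0.17, edgeR adjusted p = 0.0145), and lost the call without DHR39 replicate 2 (0.0534). Exons of Cyp6d2 overlap those of nsr on the opposite strand. Cyp6w1, linked to DDT resistance, was at 176 ± 38.7 CPM in DHR39 flies and 120 ± 23.8 CPM in controls (log2 difference 0.56 ± 0.17, adjusted p = 0.0396). Its groups overlapped, since DHR39 replicate 3 had 132 CPM and control replicate 5 had 155 CPM. The call of Cyp6w1 ended with the replicate block (0.0808) and without DHR39 replicate 1 or 2 or control replicate 2, 3 or 4 (0.0718 to 0.163).

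Cyp6g2, which gives insecticide resistance when overexpressed, was the CYP6 gene that was lower, at 5.48 ± 0.534 CPM in DHR39 flies and 8.63 ± 1.48 CPM in controls (log2 difference -0.65 ± 0.16, edgeR adjusted p = 0.0161). It lost the call without DHR39 replicate 2 (0.0596) or 3 (0.0747), and its exons overlap those of the much more abundant Cyp6g1 on the opposite strand. Cyp6t3, which acts in larval ecdysone synthesis, had 3.80, 4.17 and 3.93 CPM in DHR39 libraries and 2.42, 2.24, 2.20, 2.59 and 3.63 CPM in controls. Only control replicate 5 came near the mutant values. Cyp6t3 did not pass (log2 difference 0.60 ± 0.21, adjusted p = 0.0712), but was called higher without control replicate 5 (0.75, 0.0259) and on library totals alone (0.74, 0.0250).

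Family CYP28 held 2 low-abundance genes that were lower and 2 abundant genes that did not pass. Cyp28c1 (X, 11839608 to 11841503) had 7.89, 9.72 and 6.86 CPM in DHR39 libraries, against 17.5, 17.5, 15.8, 17.3 and 19.0 CPM in controls. The controls varied little, with a coefficient of variation of 6.66%, and the mutant libraries were all well below them. The log2 fold change was -1.09 ± 0.13 (edgeR adjusted p = 0.000109). Cyp28d2 (2L, 5207267 to 5209345) had 5.35, 3.84 and 4.98 CPM in DHR39 libraries, against 11.9, 6.77, 11.7, 9.51 and 9.10 CPM in controls. The lowest control was close to the highest mutant library without overlap, and the log2 fold change was -1.05 ± 0.20 (edgeR adjusted p = 0.00351). Its neighbour Cyp28d1, associated with nicotine resistance, was at 158 ± 10.9 CPM in DHR39 flies and 172 ± 52.3 CPM in controls (log2 difference -0.12 ± 0.20, adjusted p = 0.776). That difference turned positive with the replicate block (0.24) and without control replicate 1 (0.029).

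The remaining CYP3 clan genes, Cyp308a1, Cyp309a1 and Cyp309a2, did not pass.

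Among 8 genes of the mitochondrial clan, 2 were called lower (10.7% of all genes) and none higher (6.58% of all genes). On library totals alone 1 was lower (7.70% of all genes) and 2 higher (14.8% of all genes). Cyp49a1 was at 19.7 ± 2.09 CPM in DHR39 flies and 29.6 ± 2.43 CPM in controls (log2 difference -0.59 ± 0.11, edgeR adjusted p = 0.00244). Cyp12a4, which gives lufenuron resistance when overexpressed, was at 147 ± 5.64 CPM in DHR39 flies and 206 ± 38.3 CPM in controls (log2 difference -0.49 ± 0.14, adjusted p = 0.0283). The call of Cyp12a4 ended on library totals alone (0.0772) and without each DHR39 library or control replicate 2 or 5 (0.0512 to 0.115). An annotated Bari1 transposon copy overlaps its exons on the same strand. Cyp12b2, the most abundant uncalled CYP12 gene, was at 61.2 ± 5.45 CPM in DHR39 flies and 59.9 ± 2.07 CPM in controls (log2 difference 0.03 ± 0.09, adjusted p = 0.870). Cyp12d1-p, induced by many xenobiotics and nearly identical to its neighbour Cyp12d1-d, had 2.19 ± 0.389 CPM in DHR39 flies and 3.33 ± 0.920 CPM in controls (log2 difference -0.59 ± 0.26, adjusted p = 0.163). Cyp12d1-d is not among the 84 matching names. How reads that match both copies were counted was not checked, so the level of Cyp12d1-p is uncertain. Cyp301a1, needed for adult cuticle formation, was at 8.32 ± 1.35 CPM in DHR39 flies and 6.45 ± 0.762 CPM in controls and did not pass (log2 difference 0.36 ± 0.16, adjusted p = 0.147), but was called on library totals alone (0.51, 0.0370).

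The CYP2 clan held 3 of the genes, of which 2 were tested. Cyp304a1 (3R, 12963791 to 12965923) had 1.27, 0.332 and 0.821 CPM in DHR39 libraries, against 1.62, 12.7, 1.78, 3.80 and 3.15 CPM in controls. All mutant libraries were below all controls, but replicate 2 of the controls was more than 3 times as high as any other library. Its log2 fold change of -2.54 ± 0.75 (edgeR adjusted p = 0.0352) became -1.71 without that library, and the call ended without DHR39 replicate 1 (0.0586), 2 (0.137) or 3 (0.107) or control replicate 4 (0.0505). Cyp305a1 did not pass, at 30.7 ± 2.88 CPM in DHR39 flies and 36.7 ± 7.66 CPM in controls (log2 difference -0.26 ± 0.16, adjusted p = 0.320). Cyp303a1, needed in sensory organs, had 1 to 12 counts per library and was not tested.

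Many fly P450s arose by tandem duplication, and 31 of the 67 genes lie in 13 clusters in which each start is within 10 kb of the next. These hold 18 adjacent pairs, of which 1, Cyp313a2 and Cyp313a3, had too few counts. For each of the other 17 pairs the log2 ratio of the counts of the first to the second gene was taken within each library, which does not depend on scaling between libraries. In 7 pairs the ratios of the DHR39 libraries did not overlap those of the controls, while 24.4% of 10094 neighbouring gene pairs across the genome did not overlap. The 7 pairs were Cyp4p1/Cyp4p3, Cyp4p2/Cyp4p1, Cyp6g2/Cyp6t3, Cyp311a1/Cyp318a1, Cyp4ac1/Cyp4ac2, Cyp9f3/Cyp9f2 and Cyp12a5/Cyp12a4. Each of them had an exact two-sided permutation p of 0.0357, the smallest that 3 against 5 libraries can give in this test, and none of the 17 passed after Benjamini-Hochberg adjustment (0.0867). For any pair to pass, most of the 17 would have had to reach that smallest p, so the adjusted result cannot decide on single pairs.

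The Cyp4p cluster showed the widest of these differences. The log2 ratio of Cyp4p1 to Cyp4p3 was 1.56, 0.89 and 1.46 in DHR39 libraries and -0.16, -0.57, -0.19, -0.63 and -0.76 in controls. Cyp4p1 thus exceeded Cyp4p3 in every mutant library and in no control, a difference in mean log2 ratio of 1.76. Neither flanking gene passed the test, with Cyp4p2 at 11.4 ± 0.290 CPM in DHR39 flies and 11.0 ± 2.99 CPM in controls and Cyp4p3 at 32.5 ± 3.48 and 37.1 ± 3.02 CPM. In the Cyp4ac cluster the log2 ratio of Cyp4ac1 to Cyp4ac2 averaged 0.96 ± 0.19 in DHR39 libraries and 1.81 ± 0.22 in controls. In the Cyp6g cluster the ratio of Cyp6g2 to Cyp6t3 averaged 0.46 ± 0.18 and 1.72 ± 0.40. The 7 pairs lie in 6 of the 12 clusters with a tested pair, and in the other 6 clusters the ratios of the groups overlapped throughout. In 1 of these, Cyp4ad1, Cyp4e2 and Cyp4e1, next to each other on 2R, were all called lower, and the log2 ratio of Cyp4e2 to Cyp4e1 was 2.04 ± 0.14 in DHR39 libraries and 1.94 ± 0.29 in controls.

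**Figure D3:**
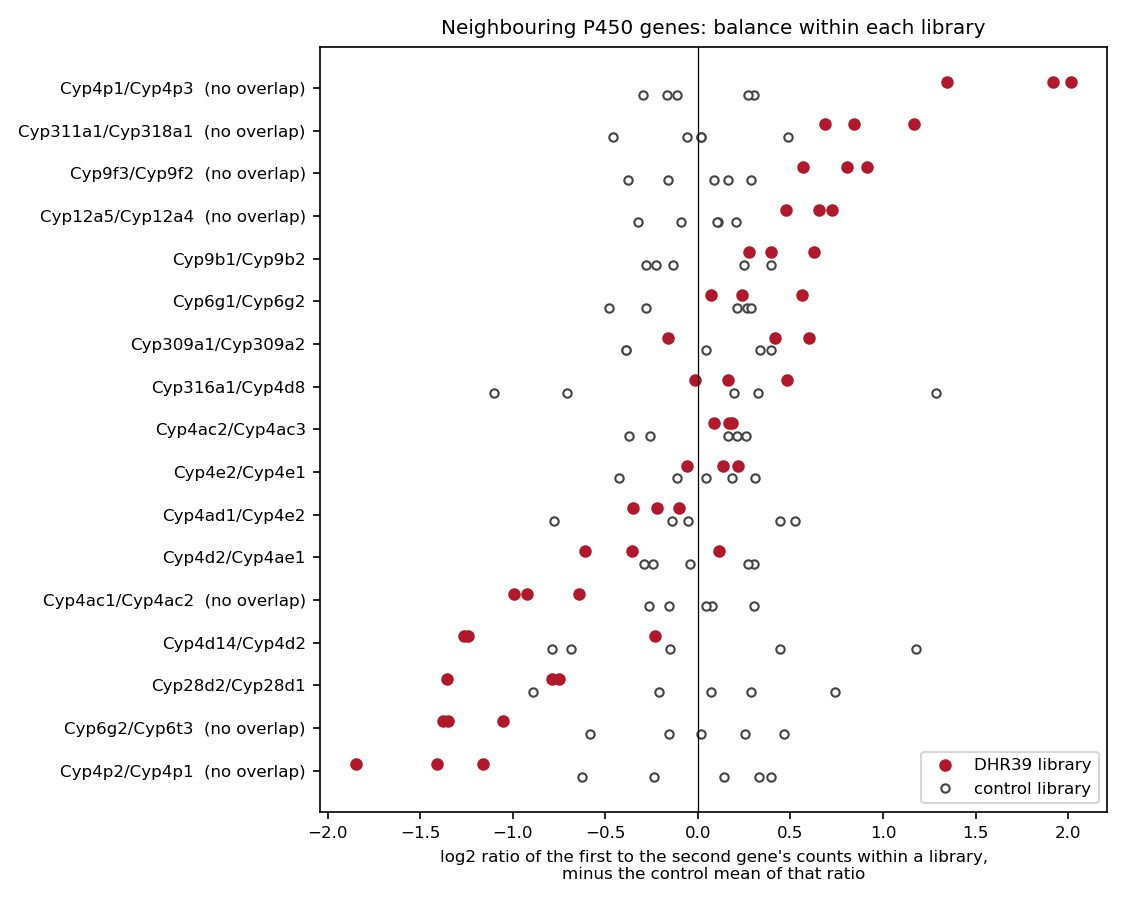
Log2 ratio of the counts of 2 neighbouring P450 genes within a library, minus the control mean of that ratio (horizontal axis), for 17 adjacent pairs, with DHR39 libraries as filled red points above the open control points. In 7 pairs the groups do not overlap, and Cyp4p1/Cyp4p3 lies farthest to the right, with a mean difference of 1.76.

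Several P450 genes differed among the controls themselves. The deposited sample sheet gives DHR39 replicates 1, 2 and 3 the replicate names of control replicates 3, 4 and 5, and control replicates 1 and 2 carry names that no DHR39 library has. In 23 of the 64 genes (35.9%) control replicates 1 and 2 were both above control replicates 3 to 5, against 11.8% of all genes, and in 4 genes (6.25%) both were below, against 9.92% of all genes. This division was looked at after the values were seen. Cyp309a1 had 43.0, 48.9 and 33.8 CPM in DHR39 libraries, 19.4, 26.7 and 37.5 CPM in the controls that share their names, and 75.6 and 73.4 CPM in control replicates 1 and 2. All 3 mutant libraries were below control replicates 1 and 2, and 2 of them were above control replicates 3 to 5, while DHR39 replicate 3 was below control replicate 5, which shares its name. The log2 fold change was -0.15 ± 0.38 with all controls (edgeR adjusted p = 0.855) and 0.62 with the replicate block (0.0618). Cyp309a2, next to it, averaged 28.2 ± 2.62 CPM in DHR39 flies, 26.7 CPM in control replicates 3 to 5 and 47.96 CPM in control replicates 1 and 2. Cyp28d1, Cyp312a1 and Cyp9b2 had the same order among their controls, with means of 227, 310 and 265 CPM in control replicates 1 and 2 and of 135, 180 and 171 CPM in control replicates 3 to 5. For Cyp6g1 the means were 600 and 406 CPM, but control replicate 2, at 473 CPM, was below control replicate 5, at 531 CPM.

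**Figure D4:**
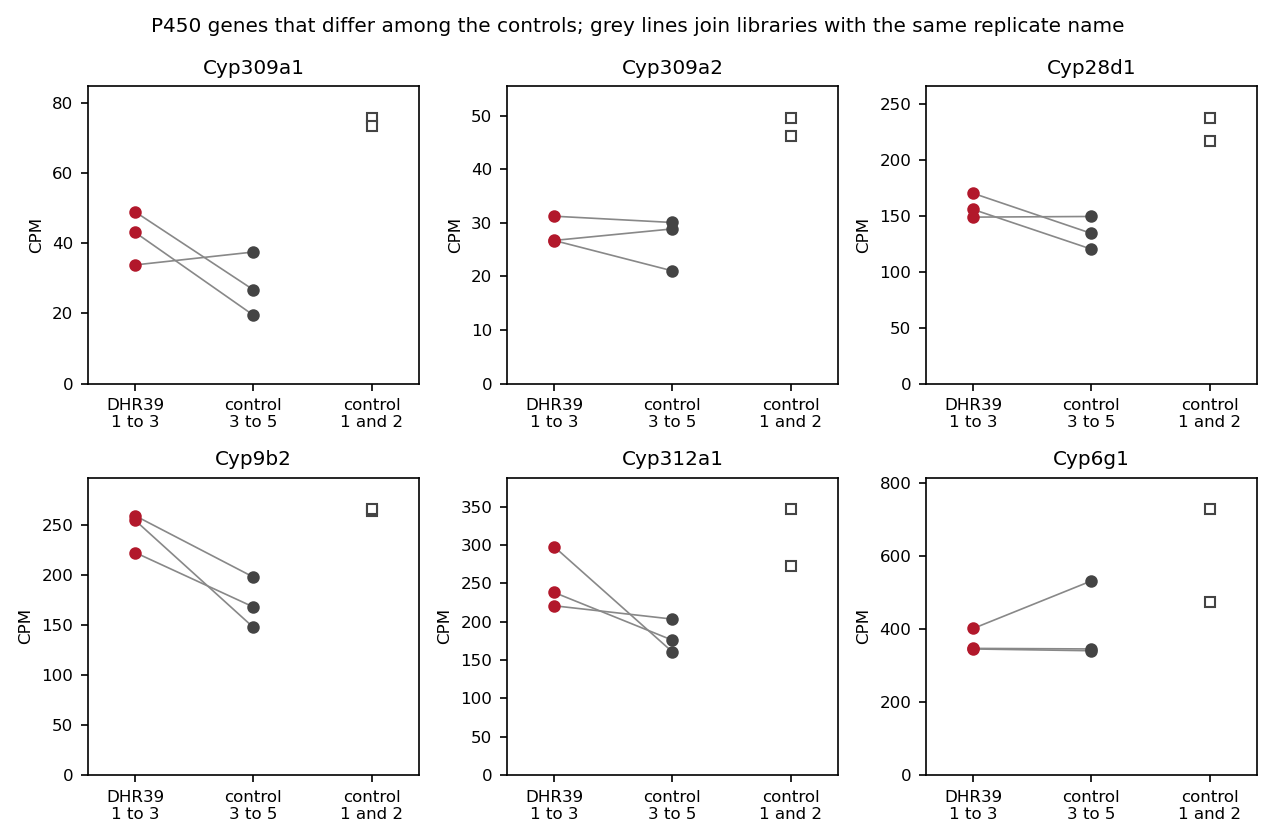
CPM (vertical axes, linear from 0) of 6 P450 genes whose controls differ among themselves: DHR39 libraries in red, control replicates 3 to 5 in dark grey joined by lines to the DHR39 library of the same replicate name, and control replicates 1 and 2 as open squares. For Cyp309a1 the open squares, at 75.6 and 73.4 CPM, stand above all other libraries.

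With control replicates 3 to 5 alone, an alternative added after the data were seen, 11 of the 64 genes were called higher (5.52% of all genes) and 12 lower (8.66% of all genes). With the replicate block, 11 were called higher (7.90% of all genes) and 14 lower (11.2% of all genes). Cyp9b2, Cyp312a1 and Cyp311a1 were called higher in both of these fits, and Cyp6w1, Cyp4d2 and Cyp4s3 lost their calls in both. Of the 25 calls, 14 passed under every one of the 15 alternatives run, 6 higher (Cyp310a1, Cyp4p1, Cyp4e3, Cyp4d21, Cyp9f3 and Cyp9b1) and 8 lower (Cyp317a1, Cyp28c1, Cyp28d2, Cyp4ac1, Cyp4d20, Cyp4e1, Cyp4e2 and Cyp49a1). None of the 25 changed direction. Left without DHR39 replicate 3, the fit called 8 genes lower in place of 16. Over all genes it called 1013 lower in place of 1444.

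Hr39 lies on arm 2L, where 23.6% of all tested genes were called. Arm 2L held 5 calls among 12 tested P450 genes, 3 higher and 2 lower. Arm 2R, of the same chromosome, held 11 among 22, 5 higher and 6 lower. Arm 3L held 1 among 6, which was lower. Arm 3R held 4 among 12, 1 higher and 3 lower, and X held 4 among 12, all lower. Of the 4 genes at least 2-fold higher, 3 lie on 2L and 1 on 2R, as do 62 and 92 of 249 such genes over all. Those at least 2-fold lower were 1 on each of 2L, 2R and 3R and 2 on X. The share of all tested genes that were called was 20.7% on 2R, 13.9% on 3L, 15.4% on 3R and 12.1% on X. Outside 2L, with 2R included, 20 of 52 P450 genes were called (38.5%), against 15.8% of all genes there. Linkage to Hr39 was not tested. The control genotype w1118 is not stated to share its background with the mutant, so genotype at Hr39 and differences between the stocks cannot be told apart.

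Of 31 listed electron donors, haem enzymes and regulators, 30 were in the table and tested. Among them, 2 were called lower (6.67%, against 10.7% of all genes) and none higher (against 6.58% of all genes). At an unadjusted edgeR p under 0.05, 4 were higher and 5 lower (1616 and 2203 of all 13506 genes, or 12% and 16.3%). DESeq2 called 0 higher and 3 lower (7.36% and 11.9% of all genes). On library totals alone the split was 5 higher and none lower (14.8% and 7.70% of all genes). The 2 that were lower were Hr39 itself and Keap1, the inhibitor of the Nrf2 homologue cnc, at 21.6 ± 1.28 CPM in DHR39 flies and 28.1 ± 3.21 CPM in controls (log2 difference -0.38 ± 0.11, edgeR adjusted p = 0.0337). The call of Keap1 ended on library totals alone (0.151) and without each DHR39 library or control replicate 1 or 4 (0.0568 to 0.130). Cpr was at 2256 ± 220 CPM in DHR39 flies and 2070 ± 164 CPM in controls (log2 difference 0.12 ± 0.10, adjusted p = 0.460). Cyt-b5-r, a cytochrome b5 relative, was at 540 ± 74.1 CPM in DHR39 flies and 678 ± 203 CPM in controls (log2 difference -0.33 ± 0.21, adjusted p = 0.355). The median log2 fold change of the 30 genes was 0.02.

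In the Cyp6a group, 8 of 13 tested genes were called, 3 higher and 5 lower, against 17.3% of all genes. Each of the 8 differed by at least 2-fold, as 9 of the 25 called P450s outside the group did. Of all 2333 called genes, 249 were at least 2-fold higher and 680 at least 2-fold lower. The difference between these groups of genes was not tested. The authors' deposited table calls 25 of the 64 P450 genes, 9 higher and 16 lower, and 24 of these were called here in the same direction. That table was read as DHR39 against control from its own values, so the shared direction is not separate evidence. Cyp318a1 is called in the authors' deposited table alone (adjusted p = 0.0380), and Cyp4s3 was called here alone (0.0593 in the authors' deposited table). Which libraries went into the deposited table was not settled, and its calls are not independent of those made here.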

How the data were processed

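Per the labels' protocols, poly(A) RNA was made into stranded libraries and read from both ends. The authors deposited raw counts per gene. Per the submitters' processing notes, reads were handled with STAR 2.6.1b, cutadapt 1.16, featureCounts 1.6.3 and DESeq2 in versions 1.20.0 and 1.22.2. The sources used here do not give the strand setting of the counting: exons of 18 of the 67 P450 genes overlap another gene on the opposite strand and 2 on the same strand, so their counts are uncertain to that extent. The deposited sample sheet gives genotypes, replicate names and each library's size factor, a ratio, and the authors' deposited comparison table gives log2 fold changes and adjusted p-values, read only to count shared calls.

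Genes were filtered with filterByExpr, scaled by TMM and tested on all 8 libraries with edgeR 4.0.16 under R 4.3.3 (quasi-likelihood, two-sided). The biological coefficient of variation was 14.9%. The procedure was tested on simulated data. Positions and exon lengths came from Ensembl release 115 of BDGP6, and gene names from the deposited release 94 sheet. Exact permutation tests were used for the neighbour ratios, with 0.5 added to each count.

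The 68 genes, gene lists and tests were chosen with earlier results of these data known. Every P450 gene could be named. Values per library are given for genes called with at least a 2-fold difference and for the 3 of highest CPM per kb. Those of Cyp6t3, Cyp309a1 and the genes set beside it were added after values were seen. Alternatives were other scalings, no filter, DESeq2 1.42.0, a replicate block, each library left out and control replicates 3 to 5 alone.

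By replicate name, DHR39 replicates 1, 2 and 3 go with control replicates 3, 4 and 5. Across genes, the libraries of a pair deviated together from their group means, with correlations of 0.215, 0.108 and 0.183. All are over 0.1, and the names were used as pairs in the replicate block fit, to whose contrast control replicates 1 and 2 add nothing. The main fit did not use the pairs, so its calls, SEs and p-values take no account of them. Of the other combinations the highest reached 0.101, which is also over 0.1. No library was counted as a repeat of another, since counts of replicates differed beyond sampling noise, at a chi-square per degree of freedom of 17.0 to 42.9.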

Additional observations from a re-analysis of the deposited data

Results flagged for a closer look

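Among the controls of the 64 tested P450 genes, 3 had 1 library whose distance to the nearest other control exceeded 0.71 of the whole range of the 5 controls. Chance gives this in about 1 of 20 groups. Control replicate 2 had 12.7 CPM of Cyp304a1, against 1.62 to 3.80 CPM in the other controls. The same library had 21.2 CPM of Cyp317a1, against 15.6 to 16.9 CPM in the other controls. Control replicate 5 had 3.63 CPM of Cyp6t3, against 2.20 to 2.59 CPM in the other controls.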

How the results depend on the processing

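On library totals alone, 15 P450 genes were higher, 3 at least 2-fold lower, 5 CYP4 clan genes higher, 2 mitochondrial clan genes higher and 1 lower, 5 partner genes higher and 0 lower, and 1997 of all genes higher. With the 50 most abundant genes out of the totals, 3 P450 genes were at least 2-fold lower, 1 mitochondrial clan gene lower, 4 partners higher and 1 lower, and 1479 of all genes higher. With the replicate block, 5 CYP4 clan genes and 1 partner (Hr96) were higher. With control replicates 3 to 5 alone, 5 CYP4 clan genes were higher, and 1 mitochondrial clan gene and 1 partner lower. Leaving out each library in turn gave 6 to 10 P450 genes higher and 8 to 15 lower, of which 3 to 4 and 2 to 5 were at least 2-fold. Over these fits 0 to 1 CYP2 clan, 3 to 4 CYP3 clan, 4 to 8 CYP4 clan and 1 to 2 mitochondrial clan genes were lower, 3 to 7 CYP3 clan and 3 to 4 CYP4 clan genes were higher, 0 to 2 partners were lower, 3 to 4 Cyp6a genes were higher and 5 lower, and 553 to 955 of all genes were higher and 1013 to 1458 lower. RLE size factors, no filter and DESeq2 kept all of these counts within 1.5 times. Signs turned only for uncalled genes. Cyp309a1 became 0.0048 on library totals, 0.62 with the block and 0.59 with control replicates 3 to 5, and ran from -0.35 to 0.095 without single libraries, positive without control replicate 1 or 2 (0.075). Cyp28d1 became 0.033 on totals, 0.24 with the block and 0.23 with control replicates 3 to 5, in a range of -0.22 to 0.029 without single libraries. Cyp309a2 became 0.092 with the block and 0.080 with control replicates 3 to 5. Cyp313a1 became -0.044 with the block and -0.052 with control replicates 3 to 5, in a range of -0.032 to 0.13. On totals Cyp4ac2 became 0.037 and Cyp4g15 0.0018. Without single libraries Cyp312a1 ran from -0.016 to 0.31, Cyp4p2 from -0.066 (-0.030 without control replicate 4) to 0.15 and Cyp12b2 from -0.045 to 0.077. Beyond the smaller number of libraries in some fits, the cause was not tested. Summing Cyp12d1-p with its near copy was not run. At 3 counts per library, levels under about 0.19 CPM were not measurable.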
